A study of Homo sapiens with 4 samples.

Results

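The RNAs that came off streptavidin beads with a biotin-carrying worm miRNA were set against the RNAs of the lysate the beads had been held in, in the human ovarian cancer line IGROV1-R10. The members were all genes whose normalised count averaged at least 50 over these 2 libraries. A gene with few reads in either library entered only through its reads in the other, so at low counts entry was tied to the ratio. The rule gave 12640 of the 60554 genes of the deposited table, which held 99.7% of the reads of both libraries. Just inside the limit lay the unnamed locus ENSG00000250896, with a mean of 50.05 normalised counts, and CNTNAP3B, with 50.07. Just outside it lay SP2-DT, with 49.98, and HTR2B, with 49.95.

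The cells had been transfected at 60 nM with a biotin-carrying duplex, either the control miRNA (a cel-miR, which the design text names cel-miR-65) or human miR-491-5p. They were broken open in a mild detergent, and debris and nuclei were spun out, so the lysates were depleted of nuclei by centrifugation. RNA from 10% of each lysate made the input library. The remainder spent 4 h on streptavidin beads that had been blocked with albumin and yeast tRNA, and RNA left after 5 washes made the pull-down library. RNA of 3 such experiments was pooled before sequencing, so each of the 4 groups was 1 library, and this report rests on the control input and the control pull-down, with the miR-491-5p pair given beside them. Beads held in a lysate without any biotin-carrying miRNA were not analysed here, so RNA bound to the miRNA and RNA bound to the beads cannot be told apart.

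Inside a cell a transfected miRNA duplex is loaded into an Argonaute protein, and its short 5′ seed pairs with sites that lie mostly in the 3′ untranslated regions of mRNAs. Argonaute recruits a scaffold protein of the GW182 family (TNRC6A, TNRC6B and TNRC6C in humans), which brings the enzymes that shorten the poly(A) tail and remove the cap. Biotin on the miRNA lets streptavidin retain the loaded complex together with the RNAs paired to it. Streptavidin also binds any other molecule that carries biotin, and in human cells these are chiefly the biotin-dependent carboxylases.

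The control input held 47679684 gene-assigned reads and the control pull-down 62582646. Counts below are reads as deposited, and a log2 ratio is the pull-down over the input after size-factor normalisation with 1 added to each value. Its range in brackets is a 95% counting interval. Such an interval covers counting error only, and without molecular identifiers some reads may be copies of 1 molecule. As each side is 1 library, ratios could not be checked against replicates and carry no p-value. A gene is called higher or lower on the beads here when the difference reached 2-fold and the interval left out 0. In bulk RNA of pooled cells, less RNA per cell and fewer cells that hold it cannot be told apart. All 12 listed ovarian or epithelial marker genes were found and none was at 0. Their summed normalised count was 155167 for the control input and 97658 for its pull-down, while 6 immune marker genes summed to 75.8 and 16.0. Hepatocyte markers stood apart in the control input, as described with the lowest genes below.

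The make-up of the RNA on the control beads differed from that of the lysate. Of the 12640 genes, 1095 were called higher on the beads (8.66%) and 1272 were called lower (10.1%), and the median of all genes was -0.15 on the log2 scale. Higher genes made 46.3% of all calls. That share was 62.9% when the libraries were scaled by their total counts and 66.0% with size factors from protein-coding genes, which moved the median of all genes up by 0.14 and 0.16. The called genes shifted much of the library: those higher on the beads held 4.50% of the input reads and 15.8% of the bead reads, and those lower on the beads held 20.7% and 9.06%. RN7SK, the 7SK RNA that restrains transcription elongation, had the largest share of input reads, at 1.52%, and COX3, a mitochondrially encoded subunit of cytochrome c oxidase, the largest share of bead reads, at 1.501%. These are shares of reads and are not corrected for gene length.

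**Figure D1:**
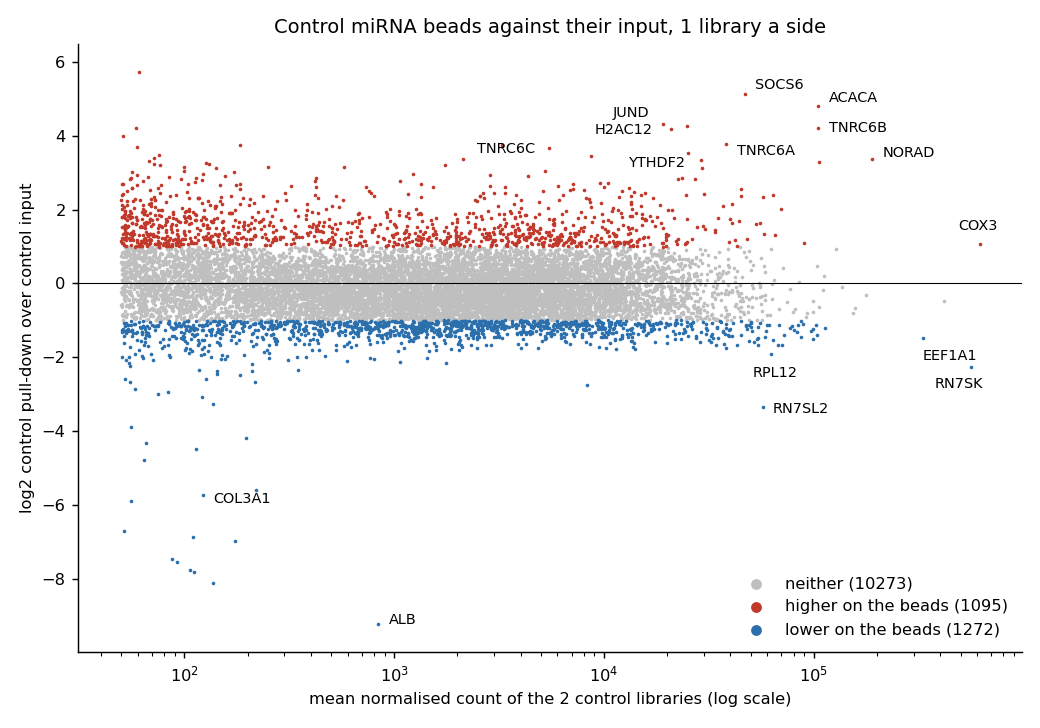
Each point is a gene, placed by the mean normalised count of the control input and control pull-down (log scale) and by the log2 ratio of pull-down over input. Colours mark the 1095 genes called higher, the 1272 called lower and the 10273 called neither. SOCS6, ACACA and TNRC6B stand above 4 at high counts, and ALB is the lowest point.

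The highest ratios of protein-coding genes belonged to SOCS6, ACACA and JUND. SOCS6, an adaptor of the suppressor of cytokine signalling family (chromosome 18, 70288901 to 70330200, hg38), had 2027 reads in the input and 102431 on the beads. Its log2 ratio was 5.13 (5.06 to 5.19), or 34.9-fold, and was the highest of the 10939 protein-coding genes. JUND, an intronless gene for an AP-1 transcription factor (chromosome 19, 18279760 to 18281622), went from 1409 to 40881 reads, a ratio of 4.33 (4.25 to 4.40). FBXO34, an F-box protein, went from 1926 to 53234 reads, at 4.26. H2AC12, a replication-dependent histone H2A gene of a single exon, went from 1690 to 44448 reads, at 4.18 (4.11 to 4.25). In each of these 4 genes the control pull-down was the highest of the 4 libraries of the study. On the miR-491-5p beads the same ratio was 0.04 for SOCS6, 0.52 for JUND and -0.94 for H2AC12, and FBXO34 had 2970 reads in that input and 8243 on those beads. H2AC12 has near-identical copies, and reads that fit several places had been dropped, so its level is uncertain.

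Others among the 15 highest protein-coding genes were GLYR1, a nucleosome-binding protein (353 and 6857 reads, 3.74), BEND7 (1121 and 17810 reads, 3.46) and PIAS3, an inhibitor of STAT transcription factors (291 and 4387 reads, 3.38). YTHDF2, the reader of N6-methyladenosine that directs marked mRNAs to decay, had 4019 and 59496 reads, at 3.35 (3.31 to 3.40). C3orf52 had 266 and 3566 reads, at 3.21. All 5 lay within 0.3 of 0 on the miR-491-5p beads: 0.26 for GLYR1, 0.28 for BEND7, -0.11 for PIAS3, -0.09 for YTHDF2 and 0.07 for C3orf52. SF3A1, a subunit of the U2 snRNP, was high on both beads, with 4676 and 58922 reads and a ratio of 3.12 in the control pair against 2.39 in the miR-491-5p pair. Whether a ratio differed between the beads was not tested, since each bead had 1 library.

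The mRNAs of the GW182 scaffold proteins stood high on the beads, and those of 3 of the 4 Argonautes did not. TNRC6B (chromosome 22, 40044817 to 40335808) went from 8408 to 224565 reads, a ratio of 4.21 (4.17 to 4.24). TNRC6A (chromosome 16, 24729695 to 24827632) went from 4013 to 79777 reads, at 3.78 (3.73 to 3.83). TNRC6C (chromosome 17, 78004168 to 78108835) went from 616 to 11417 reads, at 3.68 (3.56 to 3.79). Of the Argonautes, AGO4 was called higher, with 1937 and 7676 reads and a ratio of 1.45. AGO3 was at 0.22, AGO2 at -0.00 and AGO1 at -0.35, and none of these 3 was called. Called higher were therefore 4 of the 7 genes of this list and none lower, with a median of 1.45. The GW182 ratios in the miR-491-5p pair were 2.10 for TNRC6B, 2.17 for TNRC6A and 1.95 for TNRC6C, above 0 on both beads and lower there than on the control beads.

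Genes of miRNA processing and of mRNA decay moved less. Of 12 genes of miRNA biogenesis, DICER1, the nuclease that cuts the hairpin, was called higher (12312 and 60544 reads, 1.76) and PRKRA, a Dicer partner, lower (-1.02). Each call was 8.33% of the list, near the 8.66% higher and 10.1% lower of all genes. The list's median was -0.47. Among 30 genes of deadenylation, decapping and P-bodies 3 were called higher (10%, against 8.66% of all genes) and none lower. They were LSM14A (1.73) and the helicase DDX6 (1.60), both P-body proteins, and the exonuclease XRN1 (1.09), the last 2 named after their values were seen. The list's median was -0.04, and above 0 (0.10 and 0.12) under total-count scaling and protein-coding size factors.

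Of the biotin enzymes, ACACA was high on the beads and the others were not. ACACA, acetyl-CoA carboxylase 1, which makes malonyl-CoA for fatty acid synthesis and carries biotin (chromosome 17, 37084988 to 37406818), went from 5568 to 226673 reads. Its log2 ratio was 4.81 (4.78 to 4.85) in the control pair and 3.70 in the miR-491-5p pair. ACACB, the mitochondrial acetyl-CoA carboxylase, had 116 and 280 reads and a ratio of 0.73. HLCS, which attaches the biotin, was at 0.10, and MCCC1, PC and PCCA, the biotin-carrying subunits of the mitochondrial carboxylases, were at -0.48, -0.50 and -0.67. BTD, which recycles biotin, was at -0.53. Thus 1 of the 7 listed genes was called, and the list's median was -0.48.

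**Figure D2:**
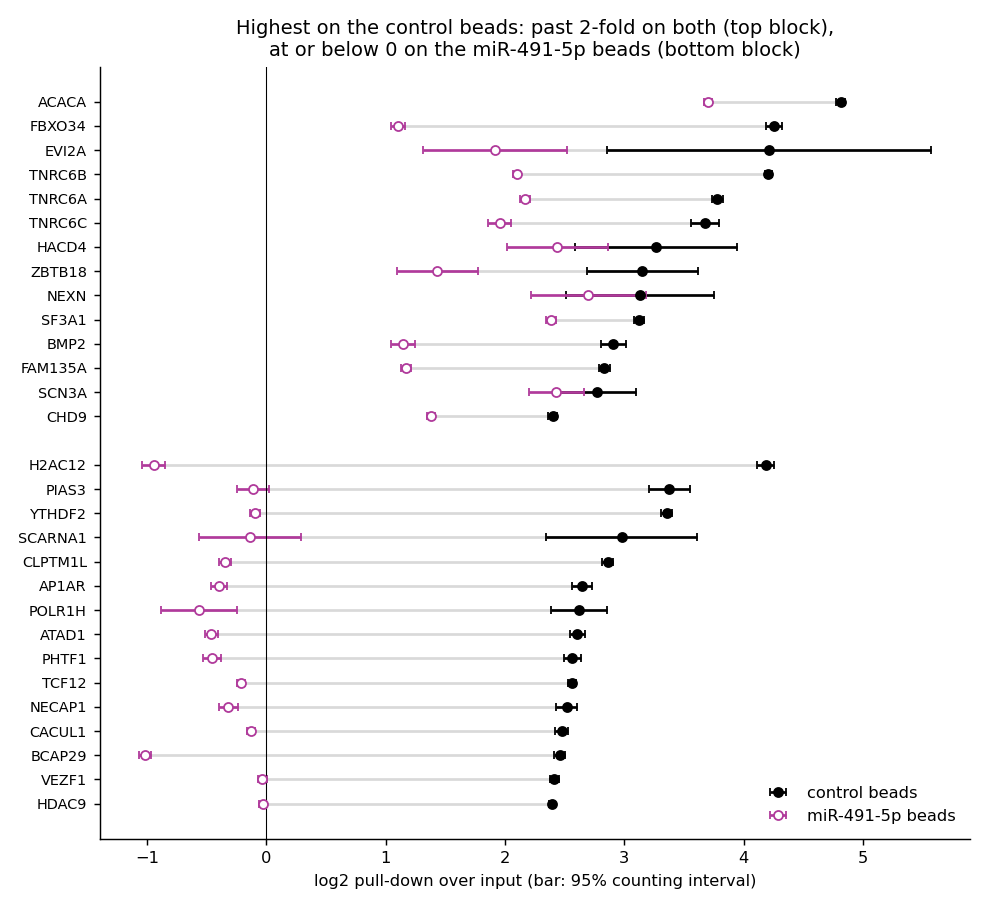
Log2 ratios of pull-down over input with 95% counting intervals, filled for the control beads and open for the miR-491-5p beads. The upper block holds high protein-coding genes called higher in both pairs, from ACACA to CHD9, and the lower block the 15 highest genes that lay at or below 0 on the miR-491-5p beads, with H2AC12 at 4.18 and -0.94.

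Ratios differed between kinds of RNA, which also differed in count level and were not matched for it. Calls of higher were more frequent at low counts: 700 of 10340 genes with a mean count of at least 200, against 1095 of all 12640. Protein-coding genes had a median of -0.19, with 735 of 10939 called higher (6.72%) and 1093 called lower (9.99%). The 539 lncRNA genes had a median of 0.14, with 94 called higher (17.4%) and 49 lower (9.09%), and the 759 loci without a RefSeq name had a median of 0.31, with 187 called higher (24.6%) and 45 lower (5.93%). Small nuclear and nucleolar RNAs were higher as a class: 16 of 29 snoRNA and scaRNA genes and 5 of 9 spliceosomal snRNA genes were called higher and none lower, with medians of 1.26 and 1.55. Some of the 16, such as SNORA49 (9 and 114 reads) and SCARNA1 (21 and 247), passed the count minimum through their bead reads. Among 164 transcribed pseudogenes the median was 0.35, with 30 called higher and 10 lower. The other 184 pseudogenes, whose values are uncertain because of their parent genes, had a median of -0.64, which was 0.45 when genes with a mean count of at least 10 entered, with 26 called higher and 66 lower. Mitochondrial tRNA and rRNA genes had a median of -0.91, with 3 of 7 called lower and none higher.

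Long transcripts stood above short ones. In the deposited table the exon length is the union of all annotated exons of a gene. Protein-coding genes with under 500 bases had a median ratio of -1.27 (28 genes), and the medians of the next bins were -1.22 at 500 to 1000 bases (74 genes), -0.88 at 1000 to 2000 (680), -0.48 at 2000 to 4000 (2854), -0.15 at 4000 to 8000 (4874) and 0.14 over 8000 (2429). The 4000 to 8000 median was 0.01 with size factors from protein-coding genes. The share called lower was 41.9% at 1000 to 2000 bases and 1.65% over 8000 bases, and the share called higher was 3.24% and 9.26%. Across the 10939 protein-coding genes, which share both libraries, Spearman's rho between exon length and ratio was 0.39, and rho with mean level was -0.00. Split by input level into 3 groups of equal size, these genes gave a rho with length of 0.30, 0.43 and 0.52 from the lowest to the highest group. It was 0.49 among the 242 genes of a single exon block, while rho with the number of exon blocks was 0.14 over all protein-coding genes. On the miR-491-5p beads rho with length was 0.32.

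The 6 lncRNA genes under 500 bases had a median of 0.05, out of order with the next bins. Above 500 bases the lncRNA genes also stepped up, with medians of -0.85 at 500 to 1000 bases (58 genes), -0.04 at 1000 to 2000 (106), 0.15 at 2000 to 4000 (207), 0.39 at 4000 to 8000 (128) and 0.44 over 8000 (34). The 1000 to 2000 median was 0.11 and 0.13 under total-count scaling and protein-coding size factors. With a mean count of at least 10 the 500 to 1000 median was 0.08 and the 1000 to 2000 median 0.13. Their rho with length was 0.34, and 0.149 with that count minimum. None of the 34 longest lncRNA genes was called lower and 13 were called higher. Loci without a RefSeq name showed little such order, with a rho of 0.04. When each gene was set against the median of protein-coding genes of its own length bin, 1756 genes were called higher and 262 lower, so most of the 1272 genes were not called lower against genes of like length.

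**Figure D3:**
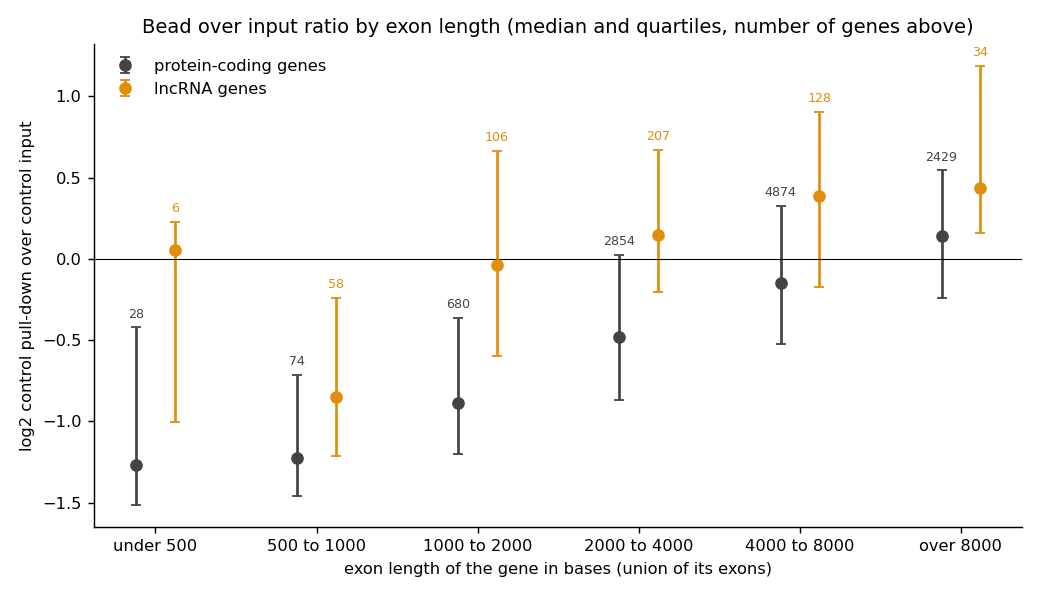
Median log2 ratio of pull-down over input with quartiles in 6 bins of exon length in bases, for protein-coding and lncRNA genes, with the number of genes above each bar. Protein-coding medians step up from -1.27 under 500 bases to 0.14 over 8000 bases.

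Ribosomal protein mRNAs were low as a group. Of 83 measured genes 71 were called lower on the beads (85.5%) and none higher, with a median of -1.35. RPL12, a large-subunit protein, was the lowest, with 76557 reads in the input and 29548 on the beads and a ratio of -1.91 (-1.93 to -1.89). RPLP2, an acidic protein of the ribosomal stalk, followed with 16926 and 7173 reads, at -1.77, and RPL8 with 45474 and 19697 reads, at -1.74. RPL36A (194 and 351 reads, 0.32) and RPL22, at 0.26, were the highest, and only 3 of the 83 lay above 0. RPL36A had far fewer reads than RPL12, RPLP2 and RPL8, so its ratio is uncertain. Reads over several genes had been left out, and whether this lowered the count of RPL36A was not tested. The median exon length of the list was 2907 bases, and its median difference from protein-coding genes of the same length bin was -0.84. On the miR-491-5p beads 47 of the 83 were called lower and none higher, with a median of -1.04.

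Transcripts of ribosomal protein and several translation factor genes are known to begin with a C followed by a run of pyrimidines, the terminal oligopyrimidine that places their translation under control of mTOR. RefSeq's table of start regions on GRCh38.p14 gave a window for 66 of these 83 genes. Where a gene had several listed starts (RPS19 has 2), a start with the run was preferred for printing. The lines below show 25 bases before the start and the first 5 bases of the transcript, 5′ to 3′ on the gene's strand, with the run in capitals. The first 4 are from genes lower on the beads, RPL36A and RPL22 are the highest ribosomal protein genes, and SOCS6 and JUND, from the top of the bead ranking, have no such run at the listed start.
RPL12 (chr9:127451402-127451431, minus strand): tctggcttgtccgcgcgatttccggCCTCT
RPLP2 (chr11:809942-809971, plus strand): accccgcctcttgcgtcggcgccttCCTTT
RPS19 (chr19:41860230-41860259, plus strand): tgtgcgcccgggaaaccccgtcgttCCCTT
EEF1A1 (chr6:73521028-73521057, minus strand): aagtgcagtagtcgccgtgaacgttCTTTT
RPL36A (chrX:101390986-101391015, plus strand): tatacttccgtttgcctcgcggtttCTTTC
RPL22 (chr1:6199591-6199620, minus strand): tgcgtctgcgtagttcgctcacctcCCTTT
SOCS6 (chr18:70289020-70289049, plus strand): gccgagaggagaaggcgagcgcggcagtcg
JUND (chr19:18281618-18281647, minus strand): agagggcgcacaagtggcgcggcgcaggag

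The run was searched as a C at the listed start base followed by 4 bases that are each C or T, on the gene's own strand only, without overlap with any other motif. It stood at the start in 4.07% of the 35116 windows of the table. A gene was taken to have the run when any of its listed starts had it. By that rule 7.6% of the 9126 measured protein-coding genes with a window had it, and 47 of the 66 ribosomal protein genes. The share of windows and the shares of genes are thus unlike measures. Among ribosomal protein genes the shares called lower were alike with and without the run: 40 of 47 ribosomal protein genes with it and 16 of 19 without it were called lower, with medians of -1.36 and -1.29. Of translation factor genes 5 of 12 with the run and 6 of 36 without it were called lower, with medians of -0.81 and -0.47, and this difference was not tested. Among the protein-coding genes other than ribosomal ones 12.7% of those with the run and 9.20% of those without it were called lower, with medians of -0.29 and -0.18. A match is a description of these letters and not of a working element.

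Other abundant housekeeping mRNAs were low as well, though less so against genes of like length. Of all genes 10.1% were called lower. Of 59 genes matched by the symbols of translation factors, a pattern that also takes a few regulators of them, 16 were called lower and none higher, with a median of -0.67. EEF1A1, which brings aminoacyl-tRNA to the ribosome, was the lowest, with 378050 and 195326 reads and a ratio of -1.49. Nuclear genes of oxidative phosphorylation were called lower in 48 of 77 and higher in 1, with a median of -1.14. NDUFA3 of complex I was at -1.69 (1874 and 838 reads). NDUFV2, also of complex I, was the gene called higher, at 1.35 with 61 and 226 reads. NDUFV2 had far fewer reads than NDUFA3, so its ratio is uncertain. Whether leaving out reads over several genes lowered the count of NDUFV2 was not tested. Mitochondrial ribosomal protein genes had 26 of 74 called lower and 1 higher, with a median of -0.92, from MRPL28 at -1.54 to MRPS35 at 1.76. The proteasome list had 17 of 43 called lower and none higher, with a median of -0.89. Against protein-coding genes of the same length bin the median differences were -0.46 for translation factors and -0.53 for oxidative phosphorylation. They were -0.38 for mitochondrial ribosomal proteins and -0.52 for the proteasome.

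Actin, tubulin and related cytoskeletal genes had a median of -1.17, with 21 of 30 called lower and none higher, led by TUBA1B at -1.57 (15841 and 7742 reads). Glycolysis had 7 of 17 called lower, none higher and a median of -0.98, with GAPDH lowest at -1.47 (62073 and 32392 reads). Of 28 cytosolic chaperone genes 6 were called lower and none higher, around a median of -0.82. HSPB1, a small heat shock protein, was lowest at -1.42, and HSPD1, the mitochondrial chaperonin that the list also holds, was highest at 0.95 with 67999 and 189675 reads. Signal recognition particle and translocon genes, which feed proteins into the endoplasmic reticulum, had 8 of 24 called lower and none higher, with SEC61G lowest at -1.57. Secreted and surface cargo had 7 of 30 called lower and none higher. DNA replication (5 of 34), cytosolic aminoacyl-tRNA synthetases (3 of 20) and cholesterol synthesis (3 of 23) had 14.7%, 15% and 13.0% called lower, near the 10.1% of all genes, and none higher, with medians of -0.71, -0.55 and -0.53. Against their length bins the median differences were -0.71 for the cytoskeletal list, -0.75 for glycolysis, -0.50 for chaperones, -0.42 for the translocon list and -0.47 for cargo. Those of DNA replication, the synthetases and cholesterol synthesis were -0.27, -0.45 and -0.26.

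Replication-dependent histone genes, whose mRNAs end in a stem-loop in place of a poly(A) tail, had a median of -1.35, with 39 of 49 called lower and 2 higher. H2AC16 was the lowest, with 751 and 251 reads and a ratio of -2.11, and H4C16 followed at -1.84 and H2BC18 at -1.77. The 2 called higher were H2AC12 and H2BC7, the latter with 6521 and 37795 reads and a ratio of 2.00. Both lay below 0 on the miR-491-5p beads, at -0.94 and -1.001. The median exon length of the list was 648 bases, and its median difference from protein-coding genes of the same length bin was -0.25. The bin medians include the histone genes themselves, and the shortest bins are small (28 genes under 500 bases and 74 at 500 to 1000). This difference therefore cannot set histone genes apart from other genes of like length. Values of single histone genes are uncertain, since their copies share sequence.

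Zinc finger and chromatin genes had medians above 0. C2H2 zinc finger genes with the symbol ZNF, mostly DNA-binding repressors, had a median of 0.52, with 84 of 387 called higher (21.7%) and 5 lower (1.29%). ZNF564 was the highest, at 2.45 (18 and 147 reads), and ZNF524 the lowest, at -1.51 (98 and 49 reads). Against protein-coding genes of the same length bin the median difference of the list was 0.70. Of 35 ZBTB genes 10 were called higher and none lower, with a median of 0.50, and ZBTB18, a repressor, reached 3.15 (39 and 510 reads). Chromatin regulators had a median of 0.49, with 10 of 44 called higher and none lower, from CHD9, a chromatin remodeller with 6119 and 46786 reads and a ratio of 2.40, down to SMARCA4 at -0.53. ARID1A, a subunit of the SWI/SNF remodeller named after its value was seen, was at 2.14.

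AP-1 and immediate early genes had 5 of 23 called higher and none lower, with a median of 0.42. FOSB was at 1.36, while FOS was at 0.08 and JUN at 0.52, neither of them called, so within the list JUND stood apart. SOCS and PIAS genes, which damp cytokine signalling, had 4 of 10 called higher and none lower. Beside SOCS6 and PIAS3 these were SOCS3 (580 and 2572 reads, 1.61) and SOCS5 (1.28), while SOCS4, SOCS7, PIAS1 and PIAS2 lay between 0.20 and 0.53, CISH at -0.13 and PIAS4 at -0.40. In the WNT list 5 of 25 were called higher and none lower, led by ZNRF3, a ubiquitin ligase for WNT receptors, at 1.60. Of 26 TGF-beta and BMP genes TGFBR3, a co-receptor, alone was called, at 1.74. Cytoskeleton giants had 3 of 20 called higher (15%), with SYNE2, which links the nucleus to the cytoskeleton, at 1.74. Of all genes 8.66% were called higher and 10.1% lower.

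Several lists held calls in both directions or none. Of all genes 8.66% were called higher and 10.1% lower. Some shares lay near these, such as 9.09% each way for EGFR, RAS and PI3K signalling and 8.05% higher for solute carriers. In EGFR, RAS and PI3K signalling 3 of 33 were called higher, among them RICTOR of mTOR complex 2 at 2.27, and 3 lower, among them MAP2K2 at -1.14. BCL-2 family genes had BCL2L11, which encodes BIM, called higher at 1.13 and 2 of 15 called lower, BAD the lowest at -1.52. The 21 p53 targets held 1 call each way, MDM2 at 1.44 and FDXR at -1.29. Among 88 splicing factors 5 were called higher and 10 lower, and the median of -0.29 lay below that of all genes although SF3A1 reached 3.12. The 30 mitosis genes had 2 called higher, CENPA, the centromeric histone H3, reaching 2.31 (2146 and 15415 reads), and none lower. None of the 30 cullin and HECT ubiquitin ligases was called. Called higher and lower were 3 and 2 of 49 nuclear pore and importin genes, 1 and 1 of 23 genes of the ER stress response, 1 and 1 of 21 laminins and integrins, 1 and 4 of 17 collagens, 1 and none of 22 G1 cyclins and CDK inhibitors, and none and 3 of 15 interferon response genes. Of 174 solute carriers 14 were called higher and 8 lower, and their median of -0.07 was 0.07 and 0.09 under total-count scaling and protein-coding size factors.

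**Figure D4:**
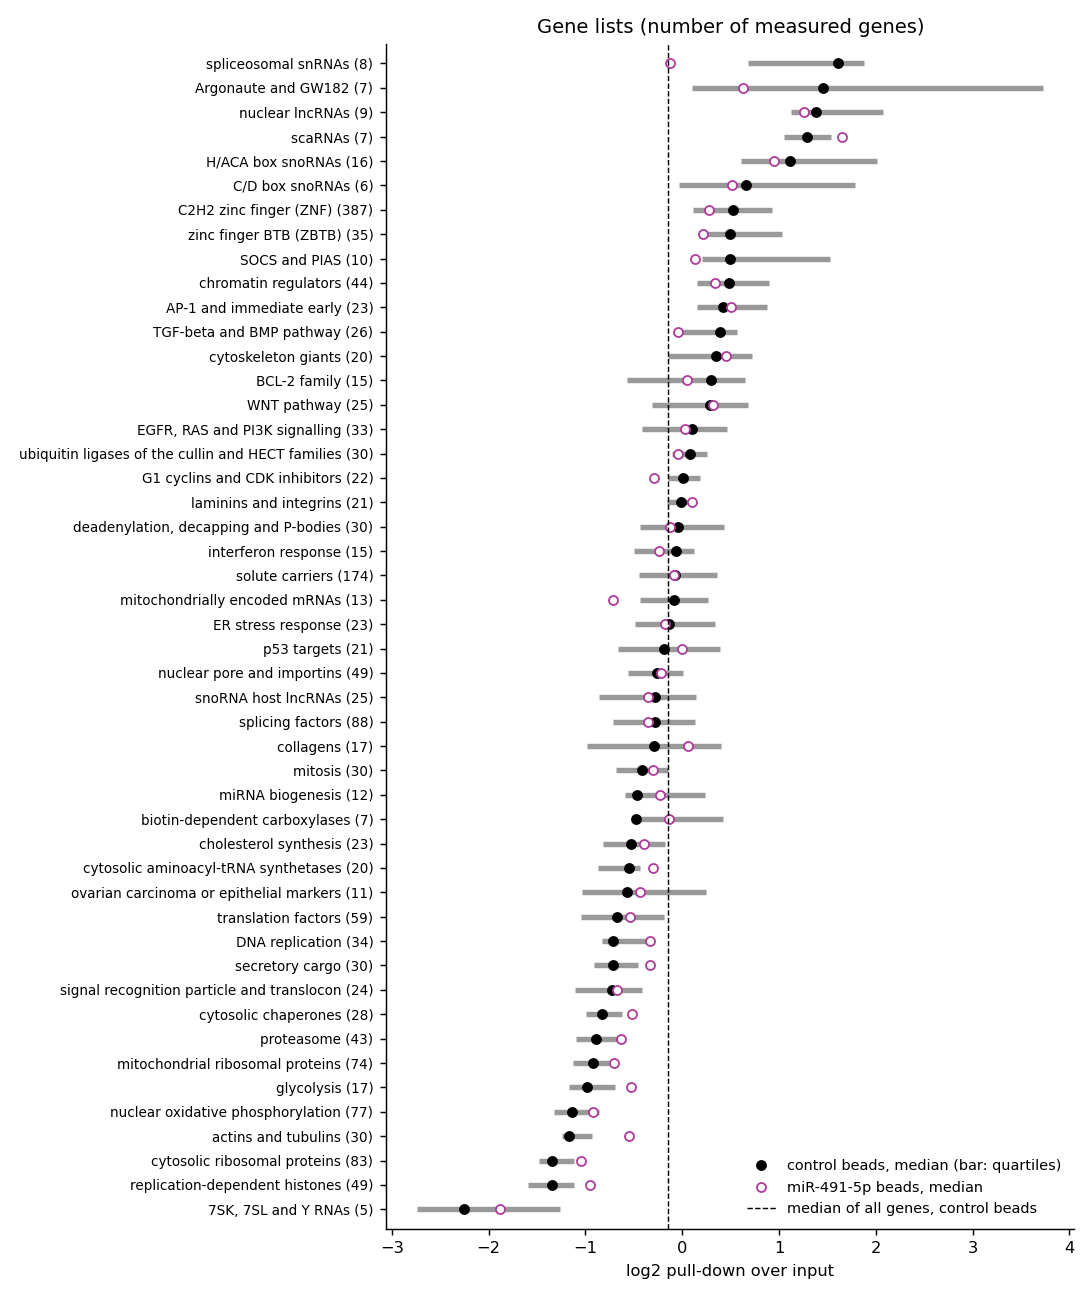
Median log2 ratio of each gene list on the control beads (filled, with a bar from the lower to the upper quartile) and on the miR-491-5p beads (open), with the number of measured genes in brackets. Ribosomal proteins and histones lie near -1.35 and zinc finger genes near 0.5, against -0.15 for all genes (dashed line).

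Among lncRNA genes FGD5-AS1 and NORAD ranked highest by the lower bound of the counting interval, while genes of few reads had ratios of like size and wider intervals. FGD5-AS1 (chromosome 3, 14920347 to 14948424) went from 3124 to 52378 reads, a ratio of 3.53 (3.48 to 3.59), against 0.24 on the miR-491-5p beads. NORAD, a cytoplasmic RNA with many sites for PUMILIO proteins (chromosome 20, 36045622 to 36050960, a single exon), went from 25774 to 388352 reads, at 3.38 (3.36 to 3.40), against 1.61. HCG11 went from 738 to 6514 reads, at 2.61. The low-count genes LOC124904242, LOC285638 and SLC7A11-AS1 had 9 to 29 input reads and ratios of 3.49, 3.41 and 3.01. They passed the count minimum through their bead reads. Of 9 measured genes on a list of nuclear lncRNAs, a list that includes the largely cytoplasmic NORAD, 7 were called higher and none lower, with a median of 1.38. MALAT1 of nuclear speckles had 14504 and 54760 reads, at 1.38, NEAT1 of paraspeckles had 862 and 2726 reads, at 1.13, and KCNQ1OT1, an imprinted antisense RNA, had 163 and 995 reads, at 2.07. These 3 were also called higher on the miR-491-5p beads, at 1.17, 1.26 and 2.07.

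At the low end of the lncRNA genes stood CASC8 (395 and 134 reads, -2.08), ATP6AP1-DT (90 and 30 reads, -2.08), CASC9 (-1.84), SNHG9 (-1.69), LOC105372995 (-1.64) and DANCR (8849 and 4981 reads, -1.36). SNHG9 and DANCR belong to the snoRNA host lncRNAs, of which 5 of 25 were called lower and 2 higher, around a median of -0.28. The higher 2 were SNHG6, with 1361 and 9015 reads and a ratio of 2.19, and SNHG14 at 1.89. SNHG6 was called lower on the miR-491-5p beads, at -1.14.

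The snoRNAs and scaRNAs, which guide chemical modification of rRNA and snRNA, were high while the genes that carry them were not. Most are cut from introns of a host gene, whose own ratio counts its annotated exons only. Over the locus of a small RNA, reads of that RNA and of unspliced host RNA cannot be told apart. A measured host was found for 28 of the 29, and 26 of these 28 small RNAs had a higher ratio than their host. The medians were 1.15 for the small RNAs and -0.57 for the hosts. Of 25 different hosts 1 was called higher and 3 lower, where 8.66% and 10.1% of all genes were so called. SNORA73B (chromosome 1, 28508559 to 28508762) had 515 and 5735 reads, a ratio of 2.94 (2.81 to 3.07), against -0.60 for its host SNHG3. SNORA53 had 278 and 2616 reads, at 2.70, against -0.61 for SLC25A3, and SNORD15B had 41 and 355 reads, at 2.56, against -0.96 for RPS3. The exceptions were SCARNA6, at 1.26 in ATG16L1 at 1.33, and SNORA74D, at -0.21 in SNHG4 at 0.28. ATG16L1 holds both SCARNA5 and SCARNA6 and was the host called higher.

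**Figure D5:**
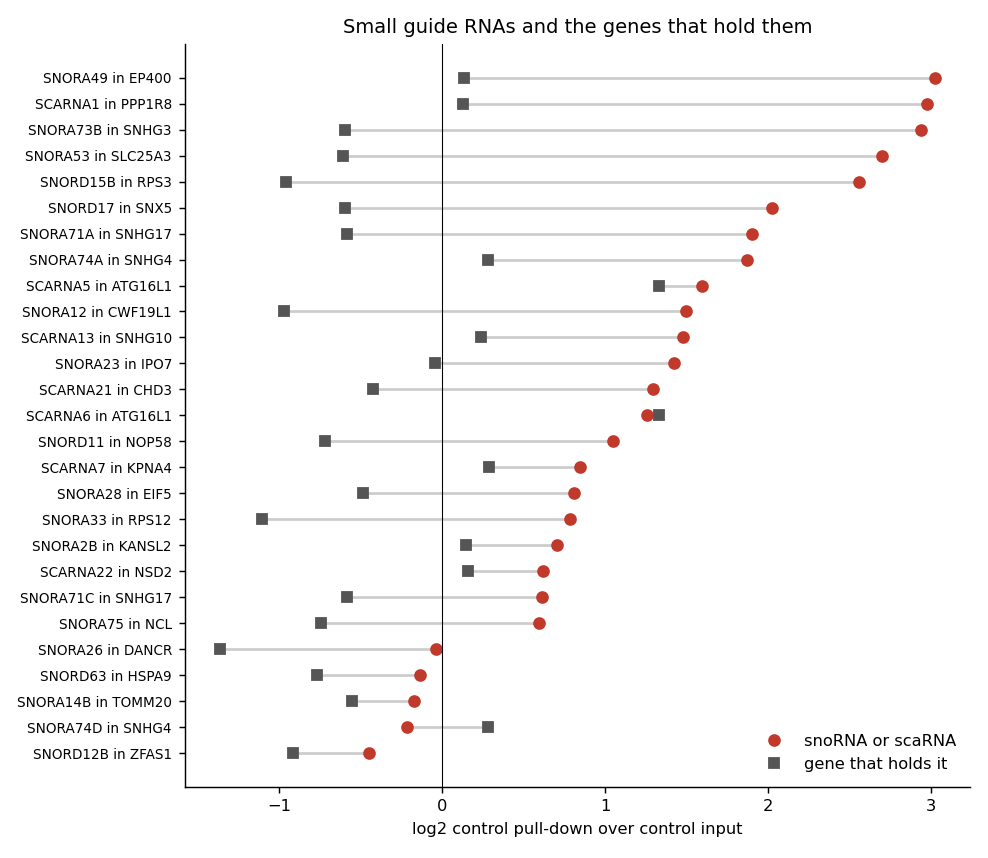
Log2 ratio of control pull-down over control input for snoRNAs and scaRNAs (circles) and for the measured gene that holds each (squares), joined by a line, with 1 pair not drawn. In all pairs drawn but SCARNA6 and SNORA74D the circle lies to the right of the square.

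H/ACA box snoRNAs, which guide pseudouridylation, had 8 of 16 called higher and a median of 1.12. C/D box snoRNAs, which guide 2′-O-methylation, had 3 of 6 called higher and a median of 0.66, and scaRNAs of Cajal bodies had 5 of 7 and a median of 1.29. Among these calls SNORA49, SNORA74A, SNORD11 and SCARNA1 passed the count minimum through their bead reads. None of the 3 lists had a gene called lower, and their medians were also above 0 on the miR-491-5p beads, at 0.95, 0.51 and 1.65. SCARNA1 was an exception among single genes, with 21 and 247 reads and a ratio of 2.98 on the control beads against -0.14. The unnamed locus ENSG00000263934 (chromosome 17, 19188016 to 19188714), which begins at the same base as the U3 snoRNA gene SNORD3A, had 2867 and 23385 reads, at 2.49, against 1.14.

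Spliceosomal snRNAs, the RNA cores of the splicing machinery, were high on the control beads in 5 of 9 cases. RNU4-1 and RNU4-2, copies of the U4 RNA, had 381 and 2061 reads and 354 and 1867 reads, with ratios of 1.90 and 1.86. RNU5B-1, RNU5A-1 and RNU5E-1, copies of the U5 RNA, were at 1.90, 1.67 and 1.55. The remaining 4, with RNU6-8 at 0.09 the lowest, were not called. They include RNU2-63P (45 and 83 reads, 0.34), a U2 copy whose symbol marks a pseudogene, and without it 5 of 8 were called. On the miR-491-5p beads none of the 9 was called, with RNU4-1 at 0.99 and RNU5B-1 at -0.27, and whether the beads differed was not tested. Copies of these genes share sequence, so each value is uncertain.

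The 7SL, 7SK and vault RNAs were called lower, and the Y RNA higher. RN7SL2 and RN7SL3, copies of the 7SL RNA at the core of the signal recognition particle, had 81583 and 11529 reads and 11287 and 2450 reads, with ratios of -3.36 (-3.38 to -3.33) and -2.74. RN7SK had 722623 and 218836 reads, at -2.26 (-2.26 to -2.25). VTRNA1-3, a vault RNA, was at -1.26. RNY1, a Y RNA bound by the Ro protein, ran the other way with 889 and 5032 reads and a ratio of 1.97 (1.86 to 2.07). On the miR-491-5p beads the first 4 were also called lower, between -2.69 and -1.79, and RNY1 lay at -0.92.

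Mitochondrially encoded transcripts did not move as a block. Their 13 mRNAs had a median of -0.09, which was 0.05 and 0.08 under total-count scaling and protein-coding size factors. COX3 went from 309785 to 939083 reads, at 1.07 (1.06 to 1.07), and was called higher, while COX2, another subunit of the same enzyme, went from 83443 to 52071 reads, at -1.21, and was called lower. CYTB of complex III lay at 0.95 and COX1 at -0.46. Among the rRNAs RNR1, of the small mitochondrial subunit, was at -1.35 and RNR2, of the large one, at -0.57. Of the tRNAs TRNN was lowest, at -2.14, and TRNE highest, at 0.76. In the miR-491-5p pair COX3 was at 0.04 and the mRNA median at -0.71.

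Human miRNA hairpin genes were nearly absent at this level, with 2 of them measured. MIR568 was called higher, with 43 and 128 reads and a ratio of 1.03 (0.53 to 1.52), against -0.38 on the miR-491-5p beads. Its mature strand is shown as the human miRNA whose locus passed the rule, from RefSeq on GRCh38.p14 (chr3:114316535-114316554, minus strand), with the seed at bases 2 to 8 in capitals.
hsa-miR-568: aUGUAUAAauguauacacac
MIR621 had 75 and 123 reads and a ratio of 0.18, and was not called. Reads of these libraries over a hairpin locus do not measure the mature miRNA.

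Loci without a RefSeq name were split by whether they lay inside a protein-coding gene on the same strand, with no test of the difference. Of 92 single-block loci inside such a gene, 32 were called higher and 2 lower, with a median of 0.65, and of 31 such loci with several blocks 14 were called higher and none lower, with a median of 0.92. Outside such genes 73 of 269 single-block loci were called higher and 22 lower, with a median of 0.46. Of the 367 loci with several blocks outside such genes, 68 were called higher and 21 lower, with a median of 0.16. Reads had been counted without regard to strand and reads over several genes left out, so unspliced RNA of the surrounding gene and RNA of the locus cannot be told apart.

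For the lowest genes of all, the control input stood apart from the other libraries. The 15 lowest protein-coding genes were led by plasma proteins of the liver: ALB, serum albumin, had 1298 reads in the control input and 2 on the control beads, a ratio of -9.23 (-11.02 to -7.44). HP, haptoglobin, had 270 and 2 reads, APOB 335 and 9, and FGG, a fibrinogen chain, 171 and 1. FGA, FGB, ORM1 and SERPINA1 had 213, 174, 166 and 136 input reads and none on the beads. Against a floor of 3 reads in the pull-down library FGA was at least 103-fold lower. Collagens COL3A1 (188 and 4 reads) and COL1A2 (170 and 10) and the immunoglobulin genes IGHG1 (143 and 0) and IGLC2 (80 and 0) ran the same way. In the miR-491-5p input ALB had 5 reads, APOB 2, FGG 1 and HP, FGA, FGB, ORM1, SERPINA1, IGHG1 and IGLC2 none. The 10 hepatocyte markers summed to 3586 normalised counts in the control input, and to 19.5 in its pull-down, against 17.8 and 29.1 in the input and pull-down of miR-491-5p. Of the calls as a whole, 31 of the 1272 genes called lower had a control input at least 2-fold above the miR-491-5p input, and 66 of the 1095 called higher had one at least 2-fold below it. COL3A1 and COL1A2 were low on both beads against their own inputs, at -4.88 and -3.75 in the miR-491-5p pair.

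Leaving out every gene whose 2 inputs differed by 2-fold or more, 1023 genes were called higher and 1241 lower. Among the lowest protein-coding genes that remained, named by this step and not by rank alone, were ZMAT5 (188 and 49 reads, -2.45), APOC1 (270 and 85 reads, -2.19), H2AC16, TAF9, a TFIID subunit (998 and 351 reads, -2.04), MICOS13 of the mitochondrial inner membrane (583 and 215 reads, -1.97) and RPL12. OST4, a subunit of oligosaccharyltransferase, was at -1.81, BANF1, a DNA-bridging protein of the nuclear envelope, at -1.80, and LGALS1, galectin 1, at -1.72. Of 1272 genes called lower, 928 were also called lower when the control beads were set against the miR-491-5p input, and 744 of the 1095 called higher kept that call. With that input the log2 ratio was 4.15 for SOCS6 (5.13 with its own input), 2.35 for YTHDF2 (3.35), 2.22 for FGD5-AS1 (3.53), 2.15 for PIAS3 (3.38), 2.77 for BEND7 (3.46) and 1.79 for C3orf52 (3.21). CACUL1, at 2.47 with its own input, was at 0.95 and was not called. The ratio was 4.95 for ACACA, 4.19 for JUND, 4.07 for H2AC12 and 3.99 for TNRC6B, each within 0.3 of the value with its own input.

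The ratios recurred in part in the miR-491-5p pair, which shares no library with the control pair. There 663 of the same 12640 genes were called higher (5.25%) and 625 lower (4.94%). Called higher in both pairs were 332 genes (2.63% of all), which is 30.3% of the control list and 50.1% of the miR-491-5p list. Called lower in both were 361 (2.86%), or 28.4% and 57.9% of the lists. Of the 1095 genes called higher on the control beads, 900 lay above 0 on the miR-491-5p beads and 195 at or below it. Of the 1272 called lower, 1176 lay below 0 there.

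Of the 735 protein-coding genes called higher, those called higher on the miR-491-5p beads and those at or below 0 there are given here, and the remaining genes lay above 0 there without that call. The 149 that were also called higher on the miR-491-5p beads had a median of 72.0 normalised counts in the control input and a median exon length of 6273 bases. The 159 that lay at or below 0 on the miR-491-5p beads had medians of 2305 counts and 5144 bases. Among the latter, beside H2AC12, PIAS3 and YTHDF2, were CLPTM1L (4450 and 46751 reads, 2.86 against -0.35), TCF12, a basic helix-loop-helix transcription factor (10182 and 86991 reads, 2.56 against -0.21), and HDAC9, a histone deacetylase (15855 and 120343 reads, 2.39 against -0.03). Among the former, beside ACACA and the GW182 genes, were BMP2, a bone morphogenetic protein (794 and 8617 reads, 2.91 against 1.15), FAM135A (4328 and 44583 reads, 2.83 against 1.17) and CHD9, at 2.40 against 1.38.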

How the data were processed

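RNA-seq libraries, 4 in all, came from a stranded total RNA kit and pooled RNA. Per the file headers, the authors assigned reads to GENCODE release 24 genes of hg38 with featureCounts (1.5.0-p1), which gave whole-number counts. The command ignored strand and required both mates to map. It was set to leave out duplicates, multi-mapped reads and reads over several genes, so overlapping, antisense and copied genes are uncertain. Whether duplicates were in fact removed was not tested, and RN7SK, with 331 bases, held 722623 reads in the control input. STAR, GRCh38 and DESeq2 1.10.1 are further named in the submitters' processing notes.

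The deposited counts were divided here by DESeq2 1.42.0 size factors over 4 libraries (0.778 for the control input and 1.13 for its pull-down). Standard errors are counting errors with 0.5 added to each count, and intervals span 1.96 of them. Genes were named by position from RefSeq on GRCh38.p14, by a rule set with the counts in view. It named 11881 members, and 41927 genes of the table against 2177 with positions moved by 3 Mb. The calculations were tested on simulated counts. The members, the gene lists and the tests were chosen with earlier results of these data known. Genes named are the 15 highest and 15 lowest protein-coding genes by the interval bound nearest 0, 6 each way of lncRNA and of other noncoding genes, 3 each way with at least 10000 input counts, and the extremes of each list (all members in lists of 12 or fewer), of which the text gives a part. Some genes that this rule names are not reported here. Genes named for their miR-491-5p value, and single genes said to be so, were chosen after their values were seen. Other scalings, count minimums, folds, names, denominators and a pseudocount of 5 were tried.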

Additional observations from a re-analysis of the deposited data

Results flagged for a closer look

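Genes were singled out here when they were called in opposite directions on the control beads and on the miR-491-5p beads, each bead against its own input. There were 15 such genes, and with 1 library a side none of the differences was tested. Called higher on the control beads and lower on the miR-491-5p beads were BCAP29, an endoplasmic reticulum membrane protein (2.46 against -1.02), SNHG6 (2.19 against -1.14), H2BC7 (2.00 against -1.001), SH3BGR (1.34 against -1.19), ENSG00000276529 (1.34 against -1.04), BOLA3, a factor of iron-sulfur cluster assembly (1.27 against -1.27), DNER (1.17 against -1.05), AK6, an adenylate kinase (1.15 against -1.12), and TMEM263 (1.12 against -1.02). The reads of BCAP29 were 3771 and 29974 in the control input and pull-down and 8687 and 5550 in the miR-491-5p pair.

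Called lower on the control beads and higher on the miR-491-5p beads were APOB (-5.58 against 2.00), the pseudogene GPX1P1 (-2.58 against 1.02), PRG4 (-1.28 against 1.33), UNC93B1, which carries Toll-like receptors to endosomes (-1.17 against 1.74), CLEC2L (-1.08 against 1.27) and PHOSPHO1 (-1.01 against 1.75). APOB and PRG4 had 2 and 12 reads in the miR-491-5p input. UNC93B1 had 546 and 350 reads in the control pair and 174 and 753 in the miR-491-5p pair.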

How the results depend on the processing

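No paired analysis was possible because each group held 1 library. Under total-count scaling 817 genes and with protein-coding size factors 746 genes were called lower on the beads, against 1272, since both scalings raise every ratio. Called higher were 2531 genes with a mean count of at least 10 and 700 with at least 200, against 1095. At 1.5-fold 2245 genes were called higher and 3408 lower, and at 4-fold 202 and 51. Among lncRNA genes rho with exon length was 0.149 with a mean count of at least 10, against 0.34, and the median over 8000 bases lay 0.67 and 0.68 above that at 1000 to 2000 bases with means of at least 10 and 200, against 0.48; the cause was not tested. The rho and the gap of protein-coding genes stayed between 0.34 and 0.42 and between 0.93 and 1.05 under every scaling, pseudocount, count minimum and denominator tried. Against the median of their length bin COX2 (0.0091), TRNC (0.24) and VTRNA1-3 (0.0062) were above 0. With the miR-491-5p input as the denominator, an alternative chosen after seeing the data, APOB (1.54), HP (1.47), C1S (0.98) and A2M (0.21) lay above 0. Precision was limited by 1 library a side and by genes with few reads on either side.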
